A study of Rattus norvegicus with 12 samples.

Results

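Markers of liver cells other than hepatocytes were followed in rat liver RNA across sex, removal of the pituitary and growth hormone (GH) treatment. The list names 40 genes of macrophages, endothelium, stellate cells and fibroblasts, bile duct and lymphocytes, and a gene was taken where the gene name given with a probe was on the list, by its brightest probe. Of the 40 genes, 34 were found in this way on 50 of the 41012 distinct probes, and they comprise 8 macrophage, 6 endothelial, 10 stellate and fibroblast, 3 bile duct and 7 lymphocyte markers. C1qc, Krt19 and Pecam1 had probes under older names that were matched by RefSeq accession, and they enter no count. Values of C1qc and Krt19 are given apart. Ratios of the endothelial marker Pecam1, well above background in 21 of 24 readings, are not reported here. Acta2, Krt7 and Marco were not analysed here. Lyz and Tacstd1 are older names of the genes that RefSeq calls Lyz2 and Epcam.

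The study used 12-week-old Fischer 344 rats and asked which liver genes respond to sex and early to GH. The 6 RNAs were from untreated (intact) males, intact females, hypophysectomised males, hypophysectomised females, and hypophysectomised males given GH by 1 or by 2 injections, so that the animals given GH and their controls had all lost the pituitary. Intact and hypophysectomised RNA was pooled over 3 to 4 livers, and the 2 arrays of a comparison took different pools. The 1-injection RNA was a single pool of 4 livers from rats killed at 30, 60 or 90 min, and the 2-injection RNA a single pool of 5 livers with injections 3 or 4 h apart. Each of these GH pools was used on both of its arrays, so the spread between those arrays holds no variation between GH-treated pools, and different times after the injection cannot be told apart. For the other RNAs the labels do not say which pool an array carried. For 1 array of the 1-injection comparison the label's treatment entry leaves GH out, and its title was followed.

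The 6 RNAs were set against each other in 6 direct comparisons, each on 2 arrays with the dyes swapped. Each value is a log2 ratio, with the RNA named first over the RNA named second, given for the replicate 1 array, then the replicate 2 array, then as the fitted value ± SE from a limma model over all 12 arrays (n = 2 arrays for each comparison). A gene was called at a Benjamini-Hochberg adjusted p under 0.05 over all probes tested. All 34 markers were tested in every comparison, and 33 of them were well above background in all 24 readings (12 arrays with 2 dyes). The T cell receptor subunit Cd3e was well above background in 20 of the 24 readings, with 0 of the 4 in intact males. As a check of the labelled tissue, 22 of 23 hepatocyte genes with a probe were tested in every comparison. The gene left untested, Rbp4, was bright all the same (mean log2 intensity 17.32). In whole liver RNA, fewer cells of a type and less RNA per cell cannot be told apart.

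Liver holds a large resident population of macrophages, the Kupffer cells, which sit in the sinusoids and express the scavenger receptor Cd163, the lysosomal protein Cd68, the colony-stimulating factor receptor Csf1r and the C1q chains of complement. The sinusoids are lined by an open endothelium that carries the vascular endothelial growth factor receptor Kdr. Stellate cells store retinoids and, when activated, make collagen, while bile ducts are lined by cholangiocytes with the keratin Krt19, the transcription factor Sox9 and the adhesion molecule Epcam (Tacstd1 here). GH leaves the pituitary of male rats in pulses and that of female rats in a more even flow, and in hepatocytes it acts through the transcription factor STAT5, which binds the motif TTCNNNGAA. Macrophage genes are known targets of the transcription factor PU.1, whose binding site has GAGGAA at its core.

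The 250 bases before the start site of 4 macrophage markers are shown first, because these genes gave contrary values. C1qb and Cd68 were lower in intact males than in females and higher after 1 GH injection, while Lyz was higher in males and lower after 1 injection. C1qa lies near C1qb on the same chromosome. The sequences are from RefSeq on the build GRCr8, all on the minus strand and written 5′ to 3′ towards the start, with capitals for matches to GAGGAA or TTCNNNGAA on either strand (GAGGAA on the other strand reads TTCCTC). They lie at chr5:154419934-154420183 for C1qa, chr5:154407828-154408077 for C1qb, chr10:54882442-54882691 for Cd68 and chr7:54798012-54798261 for Lyz (Lyz2).
C1qa: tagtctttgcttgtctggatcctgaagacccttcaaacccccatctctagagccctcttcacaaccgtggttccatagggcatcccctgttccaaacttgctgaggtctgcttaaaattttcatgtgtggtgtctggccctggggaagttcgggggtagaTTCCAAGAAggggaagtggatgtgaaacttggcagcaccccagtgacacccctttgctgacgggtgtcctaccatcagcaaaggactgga
C1qb: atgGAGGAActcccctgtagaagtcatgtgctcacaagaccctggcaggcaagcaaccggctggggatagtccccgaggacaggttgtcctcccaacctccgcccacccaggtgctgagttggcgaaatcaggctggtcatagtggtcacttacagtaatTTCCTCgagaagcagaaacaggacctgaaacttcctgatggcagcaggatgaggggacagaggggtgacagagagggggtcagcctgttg
Cd68: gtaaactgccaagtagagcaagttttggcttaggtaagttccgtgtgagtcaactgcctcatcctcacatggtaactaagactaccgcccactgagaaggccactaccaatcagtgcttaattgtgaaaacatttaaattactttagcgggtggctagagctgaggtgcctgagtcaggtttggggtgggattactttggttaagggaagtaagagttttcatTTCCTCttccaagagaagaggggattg
Lyz: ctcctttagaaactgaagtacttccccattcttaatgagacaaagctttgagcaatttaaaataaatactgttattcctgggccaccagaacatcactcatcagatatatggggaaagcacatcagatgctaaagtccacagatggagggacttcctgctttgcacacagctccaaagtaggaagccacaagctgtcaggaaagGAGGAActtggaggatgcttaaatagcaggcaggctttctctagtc
The TTCNNNGAA match of C1qa begins 90 bases before the start. The GAGGAA matches begin 247 and 90 bases before it in C1qb, 27 bases in Cd68 and 46 bases in Lyz. Sequences of this kind were found for 24 of the 34 markers. GAGGAA was in 12 of these 24 windows, against 23.3% of all 33469 windows of the same length. The 12 were in 6 of 8 macrophage, 3 of 5 lymphocyte, 2 of 3 endothelial and 1 of 6 stellate and fibroblast genes. GAGGAA was in 0 of 2 bile duct windows. TTCNNNGAA was in 2 of the 24 (8.33%), C1qa and the T cell receptor subunit Cd3d, against 7.67% of all. A match describes letters and is not a measured binding site.

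Across the comparisons the counts of called markers were highest after hypophysectomy, where 15 of 34 were called in males and 14 in females. These shares (44.1% and 41.2%) stood beside 37.5% and 36.3% of all probes tested. Between the intact sexes 9 of 34 markers were called (26.5%, against 15.5% of all probes), after 1 GH injection 7 (20.6%, against 14.3%), after 2 injections 3 (8.82%, against 30.8%), and between the hypophysectomised sexes 1 (2.94%, against 0.949%). With each array centred on its median in place of the loess normalization, only Tacstd1 after hypophysectomy in males and in females remained called, 2 of the 56 calls of markers described here, and 0 of the 56 turned sign. The 56 include the sex difference of the hypophysectomy change and 2 against 1 GH injections, given further on. The markers did not move as a block. Within each cell type some were called in a comparison and others had fitted values near 0.

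**Figure D1:**
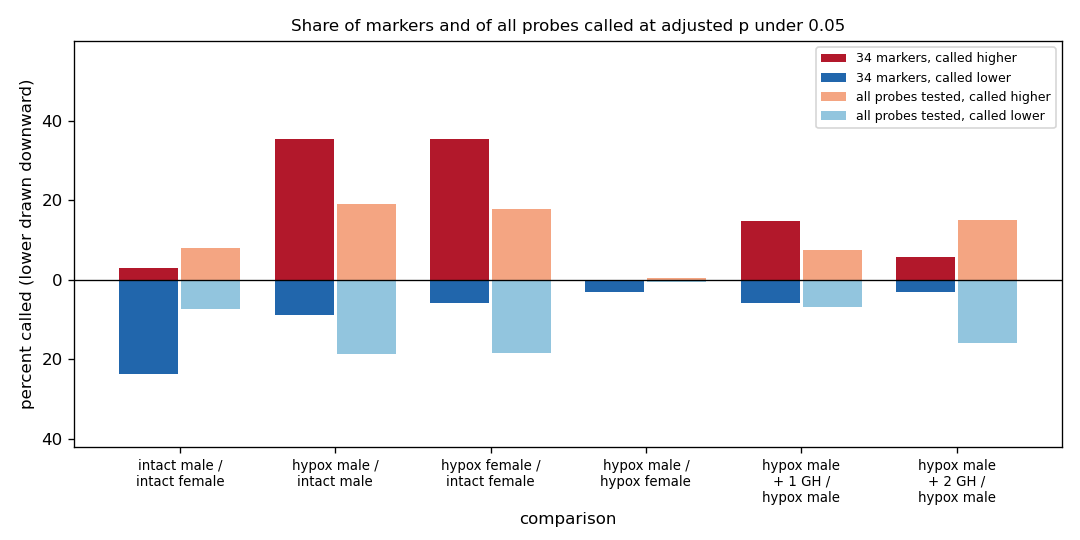
Percent of the 34 markers (dark bars) and of all probes tested (pale bars) called higher (upward) or lower (downward) at an adjusted p under 0.05 in each comparison, where hypox means hypophysectomised. Between the intact sexes 8 markers were called lower and 1 higher, after hypophysectomy 12 were called higher in each sex, and after 2 GH injections 8.82% of the markers and 30.8% of all probes were called.

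**Figure D2:**
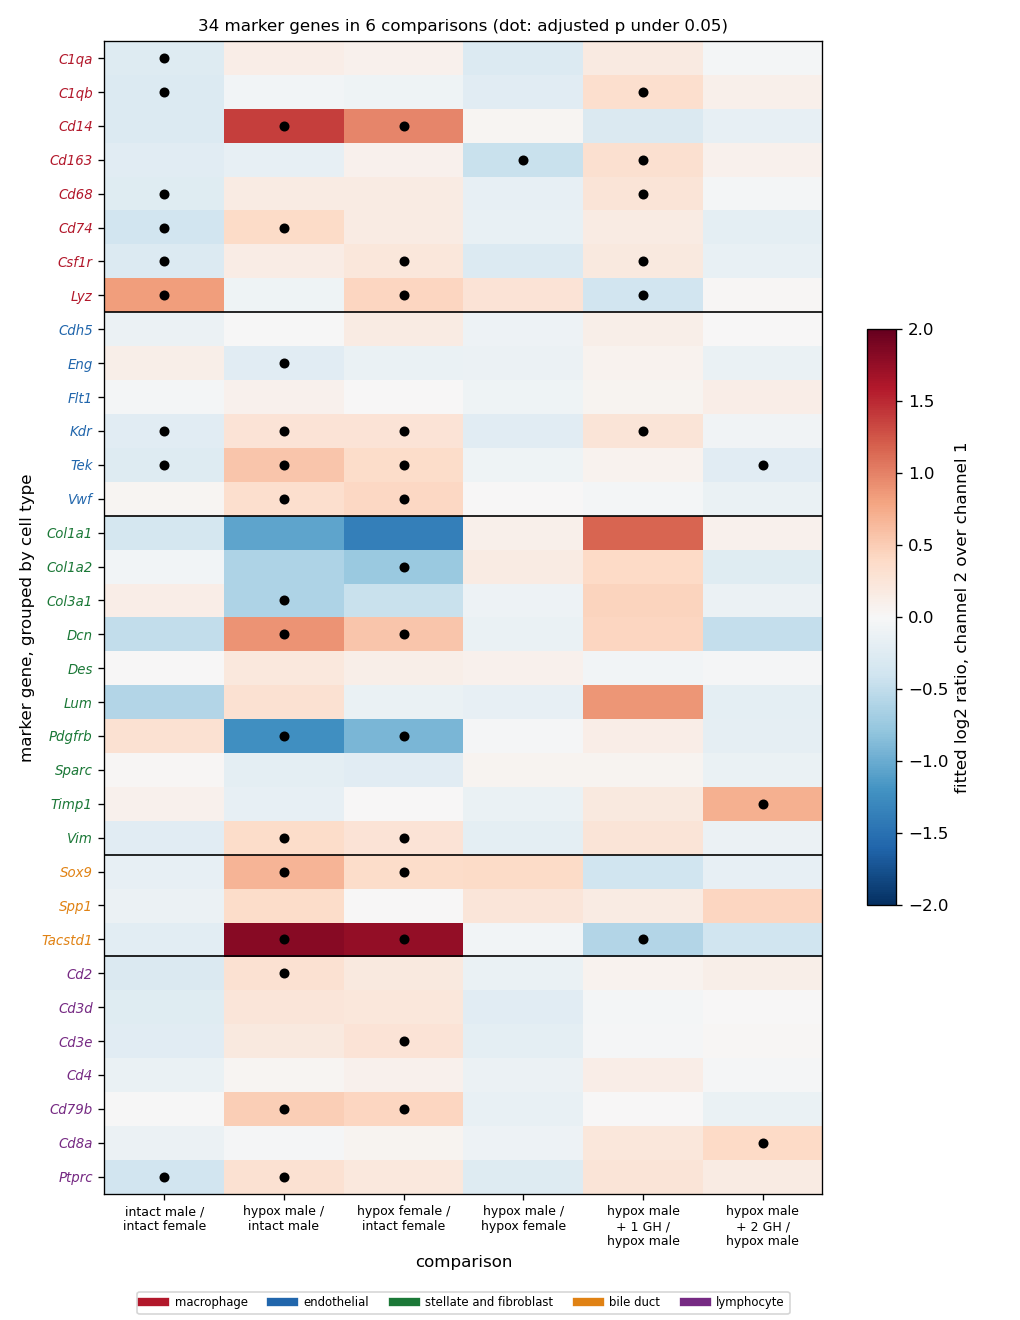
Fitted log2 ratio of each of the 34 markers (rows, coloured by cell type) in each of the 6 comparisons (columns), red where the first RNA was higher and blue where it was lower, with a dot where the gene was called. Tacstd1 and Cd14 are the deepest red in both hypophysectomy columns (1.82 and 1.39 in males, 1.75 and 0.97 in females), and Pdgfrb is called blue in both (-1.22 and -0.92).

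Most macrophage markers were lower in intact males than in intact females by a small amount, and Lyz was higher. Of the 8 markers 5 were called lower and 1 higher, beside 7.42% of all probes called lower and 8.06% called higher, and their median log2 ratio was -0.27 where that of all probes was -0.005. The first complement chain C1qa had ratios of -0.16 and -0.36 on its arrays (fitted -0.26 ± 0.05, adjusted p = 0.011), and the second chain C1qb had -0.34 and -0.21 (-0.28 ± 0.05, adjusted p = 0.00902). The growth factor receptor Csf1r had -0.23 and -0.33 (-0.28 ± 0.06, adjusted p = 0.0118). Both arrays lay below 0 for each of these genes, and the ratios correspond to levels 1.20 to 1.21 times as high in females.

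The lysosomal protein Cd68 had -0.37 and -0.11 (-0.24 ± 0.06, adjusted p = 0.021), and Cd74, the invariant chain of MHC class II, had -0.35 and -0.41 (-0.38 ± 0.11, adjusted p = 0.046). Cd14, a co-receptor for bacterial lipopolysaccharide, and Cd163, the haemoglobin scavenger receptor, had fitted values of -0.28 ± 0.09 (adjusted p = 0.0736) and -0.23 ± 0.07 (adjusted p = 0.0543) and were not called. The third C1q chain, C1qc, matched by accession, had -0.28 and -0.34 (-0.31 ± 0.09, adjusted p = 0.0546). All of these were below 0 on both arrays. Lyz, the lysozyme of myeloid cells, went the other way, with 0.93 and 0.75 on its arrays (0.84 ± 0.09, 1.78-fold higher in males, adjusted p = 0.000455).

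In the wider macrophage list, 9 of 16 genes tested were called lower in males and 0 higher (1 higher at an unadjusted p under 0.05 in the limma fit). They were led by the complement receptor Vsig4 (-0.44 and -0.38, fitted -0.41 ± 0.05), the lysosomal protease Ctss (-0.41 ± 0.06) and the Kupffer cell lectin Clec4f (-0.37 ± 0.06). The MHC class II list had 3 of 6 genes lower and 1 higher. The class II chain RT1-Ba had -0.47 ± 0.13, while the class II transactivator Ciita had 0.40 ± 0.08.

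Lymphocyte and endothelial markers lay mostly below 0 in the same comparison, with few called. Of 7 lymphocyte markers 1 was called lower, the leukocyte phosphatase Ptprc (-0.35 and -0.41, fitted -0.38 ± 0.09, adjusted p = 0.023), and the fitted values of all 7 were below 0 (-0.01 for the B cell receptor subunit Cd79b being the nearest to it). The T cell genes Cd2, Cd3d and Cd3e had -0.29 ± 0.09, -0.24 ± 0.09 and -0.23 ± 0.08, none of them called. Cd3e was not well above background in intact males. Its mean log2 signal as measured was 6.37 there and 6.6 in intact females, a 1.18-fold difference. In the wider lymphocyte list 10 of 26 genes were called lower and 0 higher (1 higher at an unadjusted p under 0.05 in the limma fit), among them the T cell kinase Zap70 (-0.99 ± 0.15), the chemokine Ccl5 (-0.46 ± 0.07) and the natural killer receptor Klrd1 (-0.46 ± 0.08).

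The endothelial receptors Tek, which binds angiopoietins, and Kdr were called lower in males (-0.26 ± 0.06, adjusted p = 0.0272, and -0.22 ± 0.05, adjusted p = 0.0241). The Kdr arrays read -0.45 and 0.01, so that only 1 of them was below 0, and Kdr had the largest dye coefficient of these 9 markers (-0.21, adjusted p = 0.00231). The other 4 endothelial markers were between -0.11 (Cdh5) and 0.12 (Eng). None of the 10 stellate and fibroblast markers was called by limma (2 lower and 1 higher at an unadjusted p under 0.05), with the small proteoglycans Lum (-0.59 ± 0.26) and Dcn (-0.50 ± 0.16) lowest and the growth factor receptor Pdgfrb highest (0.30 ± 0.09). Nor was any of the 3 bile duct markers called (0 at an unadjusted p under 0.05), with values from -0.21 to -0.12. In the wider bile duct list, however, 4 of 14 genes were called lower and 1 higher (35.7% called, against 15.5% of all probes). The stem cell antigen Prom1 had -2.32 and -2.56 (-2.44 ± 0.18, 5.42-fold lower in males), and Ggt1 had -1.38 and -1.46 (-1.42 ± 0.16). Of 22 genes of the wider stellate and fibroblast list 2 were lower, among them the protease inhibitor Timp3 (-0.77 and -0.67, fitted -0.72 ± 0.06).

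Of the 9 markers called between the intact sexes, Lyz alone was called without either array in turn, and 1 marker in all was then called in each case, with 11 at an unadjusted p under 0.05. C1qa, Csf1r, Ptprc and Tek were the called markers with a second probe. With the second brightest probe of each gene that had one, 6 of the 9 calls remained, and 7 markers in all were called. C1qb, Cd68, Cd74, Kdr and Lyz have 1 probe each, so their calls were bound to remain among the 6. In the same comparison 10 of 15 cell cycle genes were called higher in males (all 15 from -0.04 to 1.71), and 5 of 22 hepatocyte genes were called higher. The hepatocyte median was 0.94 on the replicate 1 array and -0.32 on the replicate 2 array (0.31 for the fitted values), so the arrays differed in sign. Their part in the marker values was not tested.

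After hypophysectomy markers of each cell type were called in both sexes, with some members of the same cell type going opposite ways. In males these were 2 of 3 bile duct, 4 of 6 endothelial, 4 of 10 stellate and fibroblast, 3 of 7 lymphocyte and 2 of 8 macrophage markers (37.5% of all probes). In females they were 2, 3, 4, 2 and 3 in the same order (36.3% of all probes), so the stellate share (40% in each sex) was near that of all probes. In males 12 of 34 markers were called higher and 3 lower (19% and 18.5% of all probes). In females 12 were called higher and 2 lower (17.9% and 18.4% of all probes). The median marker had 0.17 in males and 0.16 in females, where the medians of all probes were 0.008 and 0.001. Both comparisons use separate RNAs in males and females.

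The epithelial adhesion molecule Tacstd1 (Epcam) rose most of the 34 markers. Hypophysectomised over intact males gave 2.10 and 1.54 (fitted 1.82 ± 0.14, 3.53-fold, adjusted p = 7.26e-05), and the females gave 1.70 and 1.80 (1.75 ± 0.14, 3.36-fold, adjusted p = 8.42e-05). All 4 arrays lay far above 0. Sox9, a transcription factor of duct cells, rose in males (0.90 and 0.45, fitted 0.68 ± 0.12, adjusted p = 0.00337) and in females (0.24 and 0.48, 0.36 ± 0.12, adjusted p = 0.0485), and its second probe had 0.56 ± 0.10 in males, called, and 0.24 ± 0.10 in females, not called.

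The duct keratin Krt19, matched by accession, had 2.49 and 1.29 in males (1.89 ± 0.49, adjusted p = 0.0184) and 1.39 and 1.99 in females (1.69 ± 0.49, adjusted p = 0.0292). The secreted phosphoprotein Spp1, the remaining bile duct marker, had -0.16 and 0.89 in males and -0.35 and 0.37 in females, on both sides of 0 in each sex, and was not called. In the wider bile duct list 3 of 14 genes rose in males and 1 fell, and 1 of 11 rose in females and 3 fell. The tight junction protein Cldn7 had 1.87 ± 0.08 and 1.36 ± 0.08. The membrane protein Prom1 fell in females (-2.42 and -2.26, fitted -2.34 ± 0.18), as did the gamma-glutamyl transferase Ggt1 (-1.27 ± 0.16), so the duct genes did not share a direction.

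Among macrophage markers Cd14 rose in both sexes. The arrays gave 1.20 and 1.59 in males (1.39 ± 0.09, 2.63-fold, adjusted p = 2.66e-05) and 0.98 and 0.96 in females (0.97 ± 0.09, 1.96-fold, adjusted p = 0.000152). The second Cd14 probe gave 1.14 ± 0.08 and 0.85 ± 0.08, called in both sexes. Cd74 rose in males (0.38 ± 0.11, adjusted p = 0.0248), with 0.17 ± 0.11 in females. Csf1r rose in females (0.22 ± 0.06, adjusted p = 0.0173), with 0.15 ± 0.06 in males, but the second Csf1r probe had 0.00 ± 0.05 in females.

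Lyz rose in females (0.29 and 0.56, fitted 0.43 ± 0.09, adjusted p = 0.00666) and had -0.07 and -0.09 in males (-0.08 ± 0.09). The 4 other macrophage markers, C1qa, C1qb, Cd163 and Cd68, lay between -0.17 and 0.16 in both sexes and were not called. In the wider macrophage list 4 of 16 genes rose and 1 fell in males, and 3 rose and 3 fell in females, with medians of 0.03 and 0.09. Vsig4 fell in both (-0.24 ± 0.05 and -0.19 ± 0.05).

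Endothelial markers rose in part. Tek had 0.76 and 0.34 in males (0.55 ± 0.06, adjusted p = 0.000395) and 0.39 and 0.32 in females (0.36 ± 0.06, adjusted p = 0.00305). Vwf, the von Willebrand factor, had 0.26 and 0.40 in males (0.33 ± 0.08, adjusted p = 0.0165) and 0.29 and 0.55 in females (0.42 ± 0.08, adjusted p = 0.00611). Kdr had 0.27 ± 0.05 and 0.28 ± 0.05, with a value near 0 on the replicate 2 array of each sex (0.04 and 0.09).

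Second probes gave smaller values for Tek (0.25 ± 0.05 in males, called, and 0.14 ± 0.05 in females, not called) and for Vwf (0.03 ± 0.09 and 0.08 ± 0.09, neither called). The co-receptor Eng fell in males (-0.22 ± 0.06, adjusted p = 0.0236), with -0.14 ± 0.06 in females, while the cadherin Cdh5 and the growth factor receptor Flt1 lay between -0.01 and 0.16. Of the wider endothelial list 14 of 20 genes rose in males and 10 of 19 in females. None fell, nor did any at an unadjusted p under 0.05 in the limma fit. The adrenomedullin receptor partner Ramp2 had 0.57 ± 0.06 and 0.47 ± 0.06, and the sinusoidal Fc receptor Fcgr2b 0.55 ± 0.06 and 0.49 ± 0.06. The nitric oxide synthase Nos3 had 0.54 ± 0.05 in males and the hyaluronan receptor Lyve1 0.40 ± 0.06 in females.

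Stellate and fibroblast markers split. The platelet-derived growth factor receptor Pdgfrb fell in males (-1.41 and -1.03, fitted -1.22 ± 0.09, adjusted p = 6.15e-05) and in females (-0.96 and -0.89, -0.92 ± 0.09, adjusted p = 0.000233). Decorin, Dcn, rose (0.86 and 0.94 in males, 0.90 ± 0.16, adjusted p = 0.00357, with 0.36 and 0.74 in females, 0.55 ± 0.16, adjusted p = 0.0308). The intermediate filament Vim rose by 0.37 ± 0.09 and 0.28 ± 0.09. All arrays of these 3 genes lay on the same side of 0.

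The fibrillar collagen chain Col3a1 fell in males (-0.90 and -0.31, fitted -0.61 ± 0.21, adjusted p = 0.0489), with -0.45 ± 0.21 in females. The chain Col1a2 fell in females (-0.60 and -0.89, -0.75 ± 0.24, adjusted p = 0.0401), with -0.62 ± 0.24 in males. The brightest probe of Col1a1 had the lowest values of the list in females, -1.58 and -1.15 (-1.37 ± 0.55, adjusted p = 0.0869), and -1.59 and -0.54 in males (-1.06 ± 0.55, adjusted p = 0.164), and was not called in either.

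The stellate filament Des, the matrix proteins Lum and Sparc and the protease inhibitor Timp1 were not called in either sex, with values between -0.22 and 0.30. In the wider list 4 of 21 genes rose in males and 3 fell, and 1 of 21 rose in females and 4 fell. The matrix Gla protein Mgp fell by 1.81 in males and by 2.10 in females on the log2 scale, and the collagen cross-linking enzyme Lox had -0.75 ± 0.21 and -1.08 ± 0.21.

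Lymphocyte markers rose slightly where they were called. Cd79b had 0.68 and 0.30 in males (0.49 ± 0.14, adjusted p = 0.0301) and 0.35 and 0.51 in females (0.43 ± 0.14, adjusted p = 0.0489). Cd2 and Ptprc rose in males (each 0.30 ± 0.09), with 0.20 ± 0.09 and 0.21 ± 0.09 in females. Cd3e rose in females (0.42 and 0.12, fitted 0.27 ± 0.08, adjusted p = 0.0252). In males its mean measured signal after hypophysectomy was at least 1.12 times that in intact males, a bound without an error, and the change was not called. For this bound an intact signal below the lowest signal well above background on its array was raised to that signal. The T cell co-receptors Cd4 and Cd8a lay between -0.02 and 0.09 in both sexes.

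In the wider lymphocyte list 11 of 26 genes rose in males and 2 fell, and 7 of 26 rose in females and 4 fell. The cytotoxic protease Gzmk rose by 0.52 ± 0.06 in males and 0.44 ± 0.06 in females, while Cd52 fell (-0.87 ± 0.08 and -0.53 ± 0.08). Granulocyte genes moved beside them, with 4 of 7 called higher and 1 lower in males and 3 of 6 called higher in females. The calprotectin chain S100a8 had 0.96 ± 0.13 and 1.41 ± 0.13.

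**Figure D3:**
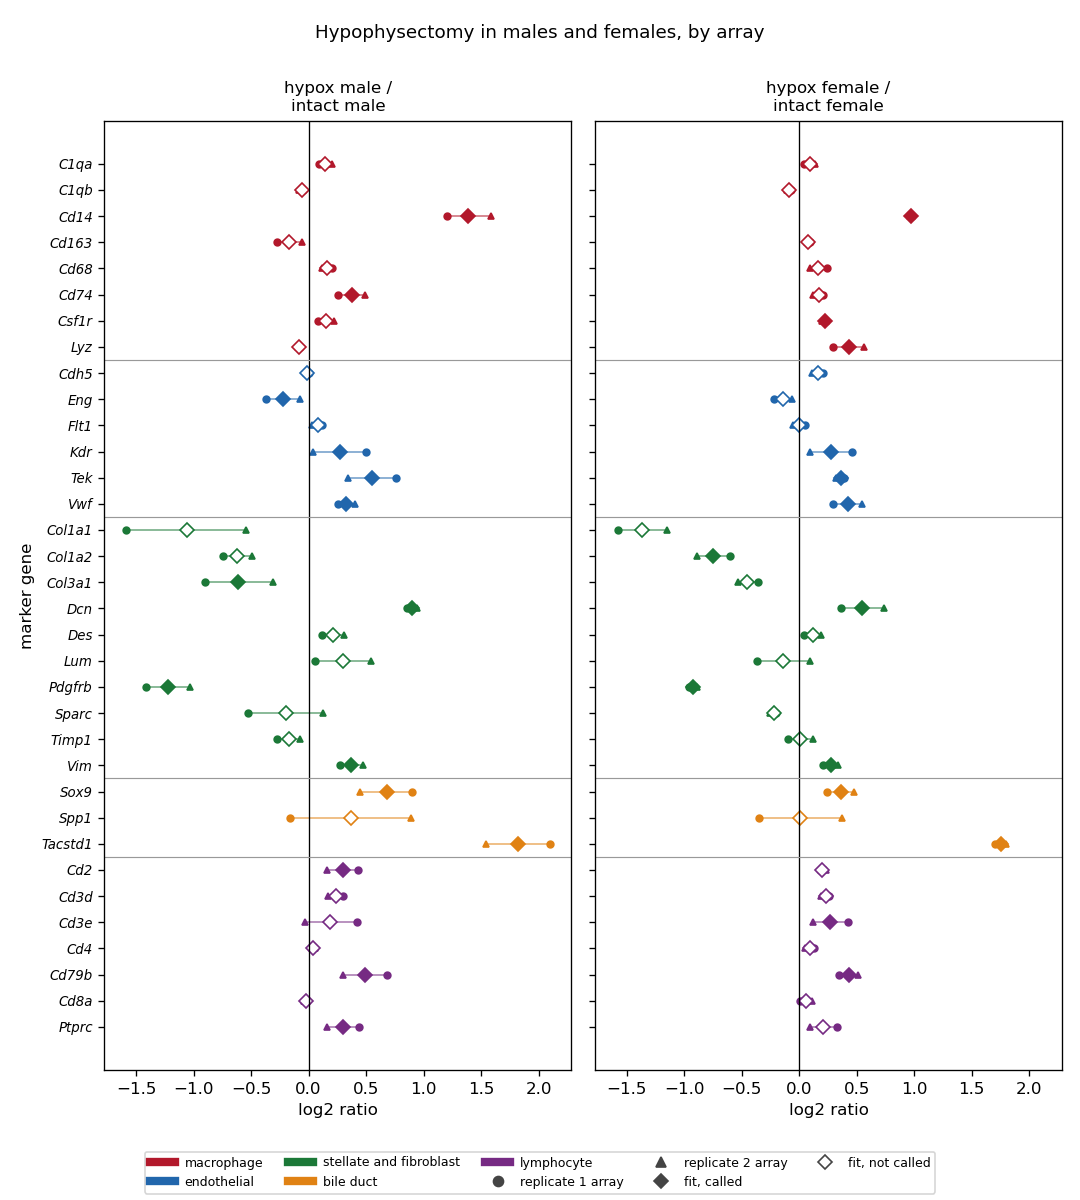
Log2 ratio of hypophysectomised (hypox) over intact liver for each of the 34 markers in males (left) and females (right), with the replicate 1 array as a circle, the replicate 2 array as a triangle and the fitted value as a diamond, filled where the gene was called. Tacstd1, Cd14 and Dcn lie to the right and Pdgfrb to the left of 0 on all 4 arrays, while the arrays of Spp1 straddle 0 in both sexes.

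Without the replicate 1 array of the male comparison 8 markers were called and without the replicate 2 array 16. Cd14, Dcn, Pdgfrb, Tacstd1 and Tek were called in both cases. Without the replicate 1 array of the female comparison 8 were called and without the replicate 2 array 3, with Cd14, Pdgfrb and Tacstd1 called in both cases. Hypophysectomy also lowered 12 of 15 cell cycle genes in males (median -1.41) and 11 of 14 in females (median -1.32), and all 4 erythroid genes in each sex (medians -1.45 and -1.0). Of the 22 hepatocyte genes tested, 2 rose and 2 fell in males and 6 rose and 0 fell in females (0 lower at an unadjusted p under 0.05 in the limma fit), with fitted medians of -0.12 and 0.10. Their arrays differed in sign here too, with medians of -0.94 and 0.62 in males and -0.58 and 0.72 in females. In each of the 6 comparisons the hepatocyte median was above 0 on the array with the first RNA in the red dye and below 0 on the other. The part of these genes in the marker values was not tested.

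The change with hypophysectomy differed between the sexes for 2 of 34 markers, 1 higher and 1 lower, beside 13.5% of all probes (6.48% higher and 7.01% lower). The difference was the male change minus the female change. It was estimated through both the hypophysectomy arrays and the arrays that compare the sexes. For Cd14 it was 0.37 ± 0.09 (adjusted p = 0.031), with the rise larger in males, and for Lyz it was -0.53 ± 0.09 (adjusted p = 0.00583), with the rise in females. The second Cd14 probe gave 0.31 ± 0.08 and was called. The Lyz difference was called without each of the 8 arrays in turn, and the Cd14 difference was called without 2 of them (the replicate 1 arrays of the male hypophysectomy comparison and of the comparison of hypophysectomised sexes) and not without the other 6. Sox9 (0.43 ± 0.12, adjusted p = 0.0529) and Cd163 (-0.23 ± 0.07, adjusted p = 0.0561) were not called. The wider lists were uneven. Of 11 bile duct genes 4 were called higher and 2 lower, among them Prom1 (2.33 ± 0.18) and Ggt1 (0.95 ± 0.16), which fell in females. Of 26 lymphocyte genes 4 were higher and 1 lower. The macrophage (1 of 16), endothelial (1 of 19) and stellate and fibroblast lists (2 of 21) were called less often than all probes. Of 5 granulocyte and 5 mast cell genes 0 were called (1 of each at an unadjusted p under 0.05 in limma). Of 13 cell cycle genes 9 were lower, and of 4 erythroid genes 2 were lower and 1 higher, with the globin chain Hbb at -2.36 ± 0.24. Of 22 hepatocyte genes 5 were lower. Their part in the marker values was not tested.

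Between hypophysectomised males and females 1 of 34 markers was called, the scavenger receptor Cd163, lower in males (-0.40 and -0.48, fitted -0.44 ± 0.07, 1.36-fold, adjusted p = 0.0296). None was called higher (2 at an unadjusted p under 0.05 in the limma fit), and 0.53% of all probes were called higher and 0.419% lower. Other macrophage markers had values near those seen between the intact sexes without being called. C1qa had -0.15 and -0.39 (-0.27 ± 0.05, adjusted p = 0.063), C1qb had -0.26 and -0.21 (-0.23 ± 0.05, adjusted p = 0.0954), and Csf1r had -0.30 and -0.25 (-0.28 ± 0.06, adjusted p = 0.0715). Every array of these 4 genes was below 0.

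The second probes of Cd163 and C1qa were called lower (-0.39 ± 0.06 and -0.34 ± 0.06), and that of Csf1r was at 0.01 ± 0.05. In the wider macrophage list 7 of 16 genes were called lower and 0 higher (0 higher also at an unadjusted p under 0.05 in the limma fit), led by Vsig4 (-0.55 and -0.47, fitted -0.51 ± 0.05), Ctss (-0.43 ± 0.06) and Clec4f (-0.41 ± 0.06). The remaining markers lay between -0.26 (Ptprc) and 0.38 (Sox9), and Lyz had 0.54 and 0.02 (0.28 ± 0.09, adjusted p = 0.219). The Cd163 call was lost with either array of this comparison left out. The SE is then wider, so this cannot say whether the call came from 1 array or from both. Of 4 erythroid genes 2 were called lower, the globin chain Hbb (-2.58 and -2.02, fitted -2.30 ± 0.24) and the haem synthesis enzyme Alas2 (-1.01 and -0.99), each by more than Cd163, and their part in the marker values was not tested.

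After 1 GH injection 4 of 8 macrophage markers rose over hypophysectomised males and Lyz fell. In all, 5 of 34 markers were called higher and 2 lower, beside 7.49% and 6.79% of all probes. C1qb had 0.39 and 0.29 (fitted 0.34 ± 0.05, 1.26-fold, adjusted p = 0.00487), Cd163 had 0.24 and 0.39 (0.32 ± 0.07, adjusted p = 0.0168), and Cd68 had 0.37 and 0.16 (0.26 ± 0.06, adjusted p = 0.0178). Csf1r had 0.18 and 0.22 (0.20 ± 0.06, adjusted p = 0.0477). Both arrays were above 0 for each of them, with ratios of 1.15-fold to 1.26-fold.

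Lyz had -0.50 and -0.28 (-0.39 ± 0.09, 1.31-fold lower, adjusted p = 0.0222). C1qa had 0.18 ± 0.05 (adjusted p = 0.0528) by its brightest probe and 0.22 ± 0.06 (adjusted p = 0.0391) by its second probe, and C1qc, matched by accession, 0.30 ± 0.09 (adjusted p = 0.0656). The second probes of Cd163 (0.22 ± 0.06) and Csf1r (0.06 ± 0.05) were not called. Cd14 had -0.29 on each array (-0.29 ± 0.09, adjusted p = 0.0733). In the wider macrophage list 9 of 16 genes rose and 0 fell (0 lower also at an unadjusted p under 0.05 in the limma fit), among them the integrin chain Itgb2 (0.47 ± 0.10), Vsig4 (0.46 ± 0.05) and Clec4f (0.44 ± 0.06).

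The duct marker Tacstd1 fell after 1 injection (-0.70 and -0.47, fitted -0.58 ± 0.14, 1.5-fold lower, adjusted p = 0.0325), and Cldn7 of the wider duct list had -1.27 and -0.86 (-1.06 ± 0.08). Sox9 had -0.37 and -0.43 (-0.40 ± 0.12, adjusted p = 0.0635). Kdr was the only endothelial marker called (0.25 ± 0.05, adjusted p = 0.0159), with 0.49 on the replicate 1 array and 0.02 on the replicate 2 array. None of the 10 stellate and fibroblast markers was called by limma (4 higher and 0 lower at an unadjusted p under 0.05), with Col1a1 at 2.28 and 0.05 on its arrays and Lum at 1.32 and 0.44. The 7 lymphocyte markers were not called either (3 higher at an unadjusted p under 0.05 in limma).

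In the wider lists 4 of 20 endothelial genes, 5 of 27 lymphocyte genes and 2 of 22 stellate and fibroblast genes rose and 0 fell (also 0 lower at an unadjusted p under 0.05 in limma). They include the protease Gzmb (0.55 ± 0.08) and Mgp (1.63 and 1.15, 1.39 ± 0.24). Of the other cell types, 4 of 10 granulocyte, 3 of 6 mast cell, 2 of 4 erythroid and 6 of 13 cell cycle genes rose. Hepatocyte genes rose for 5 of 22 and fell for 1. Of the 10 granulocyte genes, Elane was taken by the older name Ela2 from a probe whose accession RefSeq gives to the pancreatic elastase Cela2a, and it was not called in any comparison. The mast cell protease Cma1 had 0.77 ± 0.16, the globin chain Hbb had 2.85 and 2.05 (2.45 ± 0.24) and the proliferation marker Mki67 had 0.97 ± 0.13. Their part in the marker values was not tested. The 7 calls were lost with either array of the 1-injection comparison left out. The SE is then wider, so this cannot say whether a call came from 1 array or from both.

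After 2 GH injections 3 of 34 markers were called, 2 higher (15% of all probes) and 1 lower (15.8% of all probes). Timp1, an inhibitor of matrix metalloproteinases, rose most (0.79 and 0.63, fitted 0.71 ± 0.07, 1.64-fold, adjusted p = 0.000188). The T cell co-receptor Cd8a rose (0.48 and 0.32, 0.40 ± 0.08, adjusted p = 0.00776), and Tek fell (-0.07 and -0.37, -0.22 ± 0.06, adjusted p = 0.0269). Timp1 was also called without either array in turn, Cd8a without the replicate 2 array only, and Tek in neither case.

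None of the 8 macrophage markers was called after 2 injections (1 lower and 0 higher at an unadjusted p under 0.05 in limma). C1qb had 0.20 and -0.01, Cd163 had 0.13 and 0.04, Cd68 had 0.12 and -0.19 and Csf1r had -0.11 and -0.19. Lyz had 0.00 and 0.04. None of the 3 bile duct markers was called (1 lower at an unadjusted p under 0.05 in limma), with Tacstd1 at -0.47 and -0.33 (-0.40 ± 0.14, adjusted p = 0.0736), while Cldn7 fell (-0.80 ± 0.08).

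In the wider lists 4 of 16 macrophage (25%) and 4 of 20 endothelial genes (20%) rose, and 2 of 23 stellate and fibroblast genes (8.7%) fell. Beside them 15% of all probes were called higher and 15.8% lower. The adhesion molecule Vcam1 had 0.59 and 0.61 (0.60 ± 0.06), and the retinol acyltransferase Lrat of stellate cells had -0.31 and -0.75 (-0.53 ± 0.08). Granulocyte genes rose for 5 of 10, with S100a8 at 1.59 and 1.22 (1.41 ± 0.13) and the neutrophil collagenase Mmp8 at 0.83 ± 0.06. Hepatocyte genes rose for 6 of 22 and fell for 4. Their part in the marker values was not tested.

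**Figure D4:**
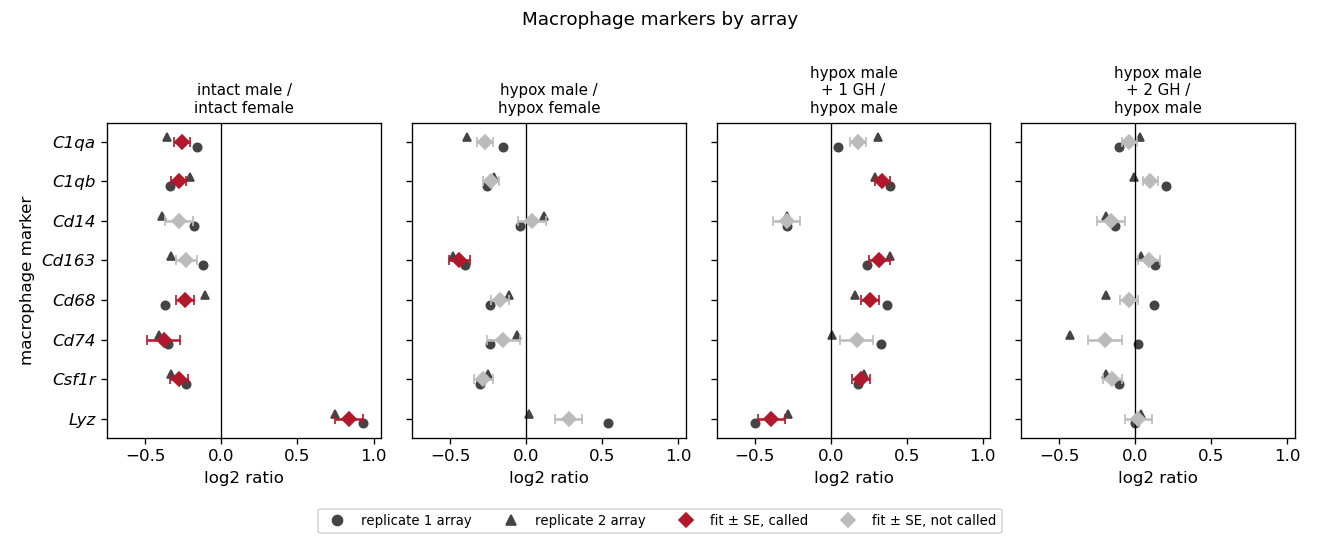
Log2 ratio of the 8 macrophage markers (rows) between intact sexes, between hypophysectomised (hypox) sexes, and after 1 or 2 GH injections, with the replicate 1 array as a circle, the replicate 2 array as a triangle and the fitted value ± SE as a diamond, red where called. All genes but Lyz lie left of 0 in the first panel, where Lyz stands at 0.84, and C1qb, Cd163, Cd68 and Csf1r lie right of 0 on both arrays after 1 injection.

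Set against 1 injection, through the hypophysectomised males that both GH comparisons share, 2 injections gave 1 marker higher and 4 lower of 34 (5.56% and 4.82% of all probes, 10.4% either way). Timp1 was higher (0.52 ± 0.10, adjusted p = 0.0173). Csf1r (-0.35 ± 0.08, adjusted p = 0.0275), Kdr (-0.33 ± 0.07, adjusted p = 0.0295), Cd68 (-0.30 ± 0.08, adjusted p = 0.0496) and Dcn (-0.91 ± 0.23, adjusted p = 0.044) were lower. C1qb had -0.24 ± 0.07 (adjusted p = 0.0798) and Cd163 -0.23 ± 0.09 (adjusted p = 0.177). In the wider macrophage list 5 of 16 genes were lower and 0 higher (also 0 higher at an unadjusted p under 0.05 in limma). Beside them 5 of 13 cell cycle genes were lower (38.5%, against 10.4% of all probes called either way), among them Mki67 (-0.92 ± 0.18) and the checkpoint kinase Bub1 (-0.84 ± 0.18), and Alas2 was lower among the 4 erythroid genes (-0.56 ± 0.11). Their part in the marker values was not tested. Timp1 was called without 1 of the 4 arrays, the replicate 2 array of the 2-injection comparison, and in the other 3 cases 0 markers were called, with 10 to 14 at an unadjusted p under 0.05 in limma.

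Markers differed widely in how far the arrays of a comparison lay apart. The residual SD of the fit was 0.98 for Col1a1, 0.89 for Krt19, 0.75 for Spp1, 0.46 for Lum, 0.42 for Col1a2 and 0.36 for Col3a1, from the 96.7th percentile of all probes upward, where the median was 0.10. It was 0.03 for Flt1, 0.04 for Cd4 and 0.05 for C1qa, C1qb and Kdr. The duct genes Sox9 and Tacstd1 had 0.20 and 0.25. A call of Col1a1, Krt19 or Spp1 thus needed a far larger ratio than that of C1qa or C1qb.

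The gaps ran in the same direction in both GH comparisons. From the replicate 1 to the replicate 2 array, Col1a1 went from 2.28 to 0.05 after 1 injection and from 1.26 to -1.07 after 2, a difference of -2.23 and -2.33. Spp1 differed by -1.45 and -1.42, Col1a2 by -1.14 and -1.24, and Krt19 by 1.61 and 1.60. The GH pool was the same on both arrays, per the series' design. In hypophysectomised against intact males, on arrays of the same dye order as the GH arrays, the gaps had the opposite sign, from -1.59 to -0.54 for Col1a1 and from -0.16 to 0.89 for Spp1, with differences of 0.25 for Col1a2 and -1.20 for Krt19. Between the hypophysectomised sexes, with the dyes the other way round, the differences were 1.48 for Col1a1, 0.71 for Spp1, 1.17 for Col1a2 and -2.16 for Krt19. In these 4 comparisons the ratio of hypophysectomised male RNA to the other RNA was thus higher on the replicate 2 array for Col1a1, Spp1 and Col1a2. It was lower for Krt19, in either dye. Without that RNA, the intact sexes differed by 1.07 for Col1a1, 0.35 for Spp1, 0.71 for Col1a2 and -0.01 for Krt19. Female hypophysectomy gave 0.43, 0.72, -0.29 and 0.60 for the same genes. Which RNA differed between arrays was not tested. Within a replicate number, 2 minus 1 injections gave -1.02 and -1.12 for Col1a1.

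The dye coefficients of Col1a1 (-0.47, adjusted p = 0.202), Krt19 (0.40, adjusted p = 0.227) and Spp1 (-0.18, adjusted p = 0.521) were not called. That of Col1a2 was called (-0.36, adjusted p = 0.0486), as were those of C1qa, Cd68, Eng, Kdr and Tek, 6 of 34 markers beside 12.4% of all probes. The second probe of Col1a1 had 0.06 and 0.01 after 1 injection and 0.06 and -0.10 after 2, so the wide gap was a reading of the brightest probe and not of all Col1a1 probes. The second probe of Col1a2 had 0.70 and 0.10 and then 0.10 and -0.56.

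**Figure D5:**
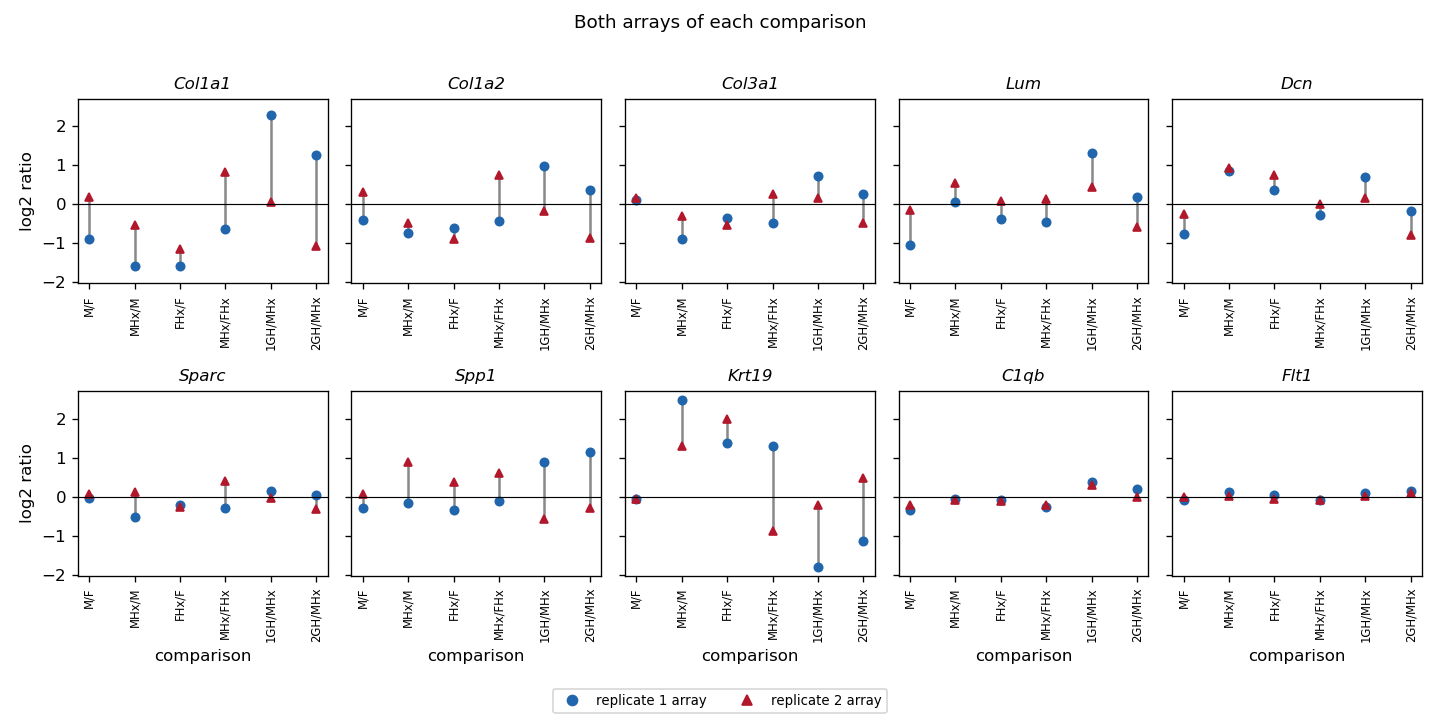
Log2 ratio on the replicate 1 array (blue circle) and the replicate 2 array (red triangle) of each comparison for 8 markers with wide gaps and, for contrast, C1qb and Flt1, where M and F are intact males and females, MHx and FHx hypophysectomised ones, and 1GH and 2GH hypophysectomised males given GH. The line between the symbols is longest for Col1a1 after GH (differences of -2.23 and -2.33), while the arrays of C1qb differ by at most 0.22 and those of Flt1 by at most 0.10.

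The ratios of the 4 intact and hypophysectomised RNAs form a closed loop, whose sum is 0 where the arrays are additive. The sums of the 34 markers ranged from -0.22 (Sox9) to 0.19, with a median absolute sum of 0.06, the same as for all probes.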

How the data were processed

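Per the file headers, each array gave a mean and a background intensity for 45018 spots in each dye, extracted with Agilent Feature Extraction 9.1.3.1, beside processed signals, an intensity corrected and dye-normalized by that software, and other deposited columns of 0 or 1 flags. The authors' value table matched log2 of the processed channel 2 signal over that of channel 1 (largest difference 0.005). Between 58.4% and 71.1% of probes were well above background per reading, and the 2 arrays of each comparison limit the precision. No spot was saturated.

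Intensities were corrected by normexp (offset 50) and normalized by loess within arrays in limma 3.58.1 under R 4.3.3 (with version 1.17.8 of data.table), with control and outlying spots at weight 0 in the loess, outlying spots then left out, and ratios turned by the labelled dyes to channel 2 over channel 1. Spots of a probe were averaged. A probe was tested where either RNA was well above background on both arrays. A limma model of 6 comparisons and a dye term (5 residual degrees of freedom) shared a spread over 12 arrays, with Benjamini-Hochberg adjustment over all probes tested. It was tested on simulated data. Alternatives are given in the closing section. The 12 arrays lie on 3 slides. The 4 GH arrays share a slide, and on each of the others lie all arrays of 1 replicate number of the remaining comparisons. The p-values measure the spread between arrays, which may be technical and holds no variation between GH pools.

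Every marker found was named, by its brightest probe. From the wider marker lists up to 3 genes each way per comparison were named, those with the largest called change in the same direction on both arrays. A gene that met this rule is not reported here. The markers and lists were chosen with earlier results of these data known. Probe positions were not used here.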

Additional observations from a re-analysis of the deposited data

Results flagged for a closer look

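The change with hypophysectomy differed between males and females for 2 of the 34 markers by a test of the difference itself in limma. For Cd14 the male change exceeded the female change by 0.37 ± 0.09 on the log2 scale (adjusted p = 0.031), and Cd14 was higher after hypophysectomy on 4 of 4 arrays. The Cd14 difference was called without 2 of the 8 arrays in turn and not without the other 6, while that of Lyz was called without each of the 8. For Lyz the male minus the female change was -0.53 ± 0.09 (adjusted p = 0.00583), with both female arrays above 0 (0.29 and 0.56) and both male arrays slightly below it (-0.07 and -0.09).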

How the results depend on the processing

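Cd3e alone was not well above background in every reading. In the order intact sexes, male hypophysectomy, female hypophysectomy, hypophysectomised sexes, 1 injection, 2 injections, sex difference of hypophysectomy and 2 against 1 injections, the counts of called markers were 9, 15, 14, 1, 7, 3, 2 and 5. Without each array in turn they ranged from 1 to 1, 8 to 16, 3 to 8, 0 to 0, 0 to 0, 1 to 2, 1 to 3 and 0 to 1. Median centring gave 0, 1, 1, 0, 0, 0, 0 and 0 (0, 6, 3, 0, 1, 1, 0 and 1 at an unadjusted p under 0.05 in limma), and a comparison's own arrays gave 5, 5, 12, 0, 0, 1, 0 and 0. Without the dye coefficient they were 4, 12, 6, 0, 3, 2, 2 and 1, and with 1 coefficient per RNA 17, 24, 18, 5, 11, 6, 5 and 8. Processed signals gave 6, 15, 14, 1, 3, 5, 2 and 2, and the deposited log2 ratios 6, 15, 14, 1, 3, 6, 2 and 2. Between the intact sexes 4 of the 9 calls remained with either. The second brightest probe gave 7 between the intact sexes, 9 in female hypophysectomy and 2 between hypophysectomised sexes. The mean over probes gave 2 in the last of these, and no filter on dim probes 3 for 2 against 1 injections.

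With the replicate number as a block, 8, 13, 10, 0, 5, 3, 1 and 3 markers were called. The labels do not say that a number marks a shared pool. Correlations of the replicate deviations ran from -0.68 to 0.88, negative or positive by the place of the shared RNA where comparisons share hypophysectomised males, which a block of 1 sign cannot follow. A further fit, chosen after seeing the data, was paired by number on the 4 GH arrays alone. On these arrays number and dye order cannot be told apart. There 2 against 1 injections gave 22 calls (5 higher, 17 lower), the 5 calls of the full model among them. The spread of that fit holds no variation between GH pools. Of the 56 calls, 43 remained with the replicate number as a block and 55 with slide as a random block (correlation 0.014). All 56 remained under the stricter filter on dim probes and with 1 coefficient per RNA. With processed signals 39 remained, as with the deposited log2 ratios, and 30 without the dye coefficient. The second brightest probe kept 42, the mean over probes 45, no filter on dim probes 47 and a comparison's own arrays 18. The only called value to turn was Csf1r in female hypophysectomy, at 0.00 by its second probe (adjusted p = 1.0, from 0.22). The causes of these shifts were not tested.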

Other observations

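Genes of exocrine pancreas and fat, which liver RNA can hold as traces of adjoining tissue, also differed between groups, and 4 to 7 of the 10 with a probe were tested in a comparison. The carboxypeptidase Cpa1 was lower in intact males than in intact females (-3.66 and -4.21, fitted -3.93 ± 0.80) and lower in hypophysectomised than in intact females (-4.62 and -3.68, fitted -4.15 ± 0.80). The elastase Cela1 was higher in intact males (1.90 and 1.59, fitted 1.74 ± 0.20), and the amylase Amy2 was lower after 2 GH injections (-0.77 and -0.95, fitted -0.86 ± 0.09). The Amy2 and Cela1 probes used were bright (mean log2 intensity 15.3 and 13.09, against 8.75 for Cpa1). The second probes of Amy2 and Cela1 had 9.46 and 6.46. Whether these signals came from adjoining tissue was not tested. Of 6 genes of this list tested between the intact sexes 2 were called higher and 2 lower, so the list had no single direction.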
